A study of Mus musculus with 5 samples.

Results

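Retinoic acid is a small lipophilic signal made from vitamin A. Genes of its pathway were examined here in RNA recovered on anti-FLAG beads. The beads were used on cells with and without FLAG-tagged SMN, the survival of motor neuron protein. The amount of retinoic acid in a cell is set by uptake of retinol, oxidation to retinoic acid and removal by CYP26 enzymes. In the cytoplasm the acid is carried by the binding proteins CRABP1 and CRABP2, and in the nucleus it binds receptors (RARs) that sit on DNA with RXR partners. It is known for patterning the spinal cord and for driving neuroblastoma cells and motor neuron precursors to differentiate. The genes were Crabp1, Crabp2, Stra6, Aldh1a2, Dhrs3, Cyp26b1, Rara, Rarb and Rarg. Each was taken through the probe set whose only gene symbol it is. All 9 had exactly 1 such probe set, among 19937 genes with a probe set of their own.

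The values came from 5 single-colour Affymetrix arrays of RNA bound to anti-FLAG beads, 3 from cells with a 3XFLAG-flSMN construct (FLAG-SMN IP) and 2 from cells with no FLAG construct (control IP). Both groups were NSC-34 cells, a hybrid line that joins mouse neuroblastoma with motor neurons of the spinal cord. Both groups were differentiated in 1% serum, given 3 µg/ml doxycycline for 3 days and irradiated with ultraviolet light at 400 mJ/cm2. The labels give the differentiation as 48 hours before doxycycline in one protocol and as 3 days in another. They do not say whether the construct line is a clone, which promoter drives the construct, or whether replicates came from separate cultures. Any p-value therefore measures the spread between these arrays, which may be technical. Values are RMA values on the log2 scale, so a difference of 1 is a doubling, and the number of arrays limits their precision.

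The label check and the arrays came first. Smn1, which encodes SMN, was at 9.89, 9.50 and 9.46 in FLAG-SMN IP and at 8.10 and 7.64 in control IP, higher on every array of the group that carries the construct. Whether its probe set reads RNA of the construct is not given in the sources used here. FLAG-SMN IP replicate 1 stood apart from replicates 2 and 3, with r of 0.964 and 0.968 across probe sets where replicates 2 and 3 had 0.989. With the control arrays, FLAG-SMN IP replicates 2 and 3 had r of 0.968 to 0.977, each above its r with replicate 1. The arrays thus did not group by precipitate alone. Of the 8 motor neuron markers, 4 lay on all arrays above the median of the presumed controls, the 6573 probe sets whose IDs precede every annotated ID, used here as a mark of background. The choline transporter gene Slc5a7 and the homeobox gene Mnx1 lay below it on all arrays.

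Crabp1 had much less RNA in the FLAG-SMN precipitates than in the control precipitates. Its protein holds retinoic acid in the cytoplasm. The probe set (10585438) was at 7.10, 7.27 and 7.23 in FLAG-SMN IP replicates 1, 2 and 3 and at 10.57 and 10.20 in control IP replicates 1 and 2. All 3 FLAG-SMN arrays lay together, far below both control arrays. The lowest control array exceeded the highest FLAG-SMN array by 2.93, whereas the FLAG-SMN arrays spanned 0.167 and the control arrays differed by 0.372. The group means were 7.20 ± 0.088 (SD, n = 3) and 10.38 ± 0.26 (SD, n = 2), a log2 difference of -3.18, or 9.09-fold lower. The presumed control probe sets had medians from 4.30 to 4.55 over the 5 arrays, and Crabp1 exceeded them in FLAG-SMN IP too.

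Crabp1 was chosen by its difference between FLAG-SMN IP and control IP, and the other genes as its pathway with the results known, so their differences are given as a description without a test. In the limma fit over all 28187 probe sets, 1 of the 9 genes, Crabp1, had an adjusted p under 0.05, beside 0.0301% of all genes; the choice fixed that count and nothing is read from it. The call was lost after cyclic loess scaling, with all probe sets of the table tested, with the replicate number as a block, and on leaving out any array but FLAG-SMN IP replicate 1 (FLAG-SMN IP replicates 2 and 3, both control IP replicates). The difference itself stayed between -3.37 and -3.00 in every setting tried. The labels give RNA of the precipitates, and RNA of the lysates was not analysed here. A lower Crabp1 level in the construct cells and less retention of Crabp1 RNA on the beads therefore cannot be told apart, nor can fewer cells with the RNA and less RNA per cell.

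**Figure D1:**
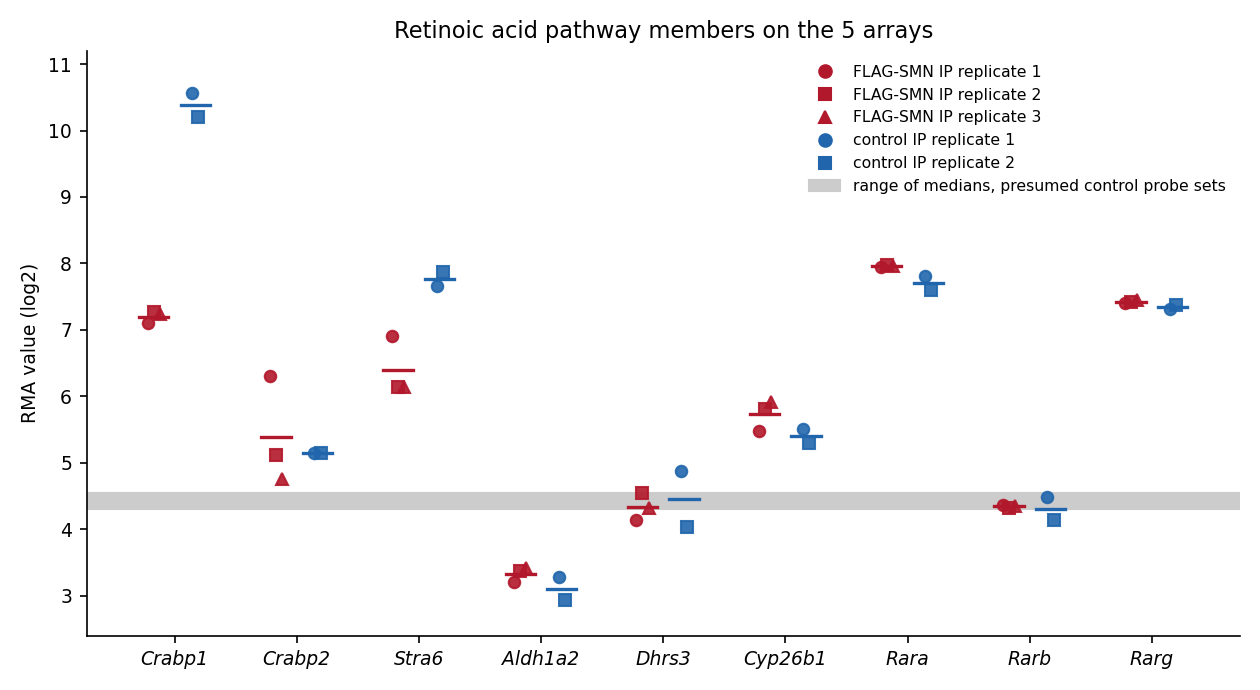
RMA values (log2) of the 9 retinoic acid pathway genes on each of the 5 arrays, with FLAG-SMN IP in red, control IP in blue, 1 symbol per replicate number and a bar at each group mean. The grey band spans the 5 arrays' medians of the presumed control probe sets (4.30 to 4.55); Crabp1 and Stra6 lie lower in FLAG-SMN IP, while the other genes differ by at most 0.33 between the group means.

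Crabp2, the close relative that delivers retinoic acid to its nuclear receptors, did not share the difference of Crabp1. Its probe set (10493108) was at 6.31, 5.12 and 4.75 in FLAG-SMN IP and at 5.15 and 5.15 in control IP. FLAG-SMN IP replicate 1 was the high array, and the groups overlapped. The difference of means was 0.24 with all arrays and -0.21 without FLAG-SMN IP replicate 1, so its sign rested on that array. Replicate 1 lay 1.37 above the mean of replicates 2 and 3, a distance that 2.68% of tested probe sets reached or exceeded. The FLAG-SMN arrays had an SD of 0.81 for Crabp2 and 0.088 for Crabp1.

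Stra6 encodes the membrane receptor that takes up retinol from its plasma carrier, and its name records its induction by retinoic acid. The probe set (10585803) was at 6.91, 6.13 and 6.14 in FLAG-SMN IP and at 7.66 and 7.87 in control IP. As with Crabp1, the groups were apart with FLAG-SMN IP lower, and the gap between the groups was 0.753. The means were 6.40 ± 0.45 (SD, n = 3) and 7.77 ± 0.15 (SD, n = 2), a difference of -1.37, or 2.59-fold lower. Replicate 1 was again the array apart, 0.772 above the mean of replicates 2 and 3, which 11.8% of tested probe sets reached or exceeded. Without it the difference was -1.63. Over the settings tried it ran from -1.63 to -1.24.

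The enzyme genes among the 9, Aldh1a2, Dhrs3 and Cyp26b1, showed no separation of the groups. Aldh1a2 encodes the retinaldehyde dehydrogenase of the embryonic spinal cord, and its probe set (10586865) was at 3.20, 3.38 and 3.41 in FLAG-SMN IP and at 3.28 and 2.94 in control IP. These values lay below the median of the presumed control probe sets on all 5 arrays, so no level above background was seen. Dhrs3 encodes a reductase that turns retinaldehyde back into retinol. Its probe set (10510129) was at 4.13, 4.54 and 4.32 in FLAG-SMN IP and at 4.88 and 4.03 in control IP, above that median on 3 arrays. The control arrays of Dhrs3 lay 0.845 apart, which 5.76% of tested probe sets reached or exceeded, and its difference was -0.12 with all arrays and 0.30 without control IP replicate 1. The level and the direction of Dhrs3 were thus not settled by these arrays.

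Cyp26b1 encodes a cytochrome P450 that clears retinoic acid. Its probe set (10545771) was at 5.49, 5.80 and 5.91 in FLAG-SMN IP and at 5.51 and 5.30 in control IP. FLAG-SMN IP replicate 1 fell between the control arrays while replicates 2 and 3 lay above them. The difference was 0.33, against SDs of 0.22 and 0.15, and it stayed positive in all settings tried.

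The 3 receptor genes had nearly equal values in both groups. Rara, the most widely expressed receptor gene, was at 7.94, 7.98 and 7.96 in FLAG-SMN IP and at 7.80 and 7.61 in control IP (probe set 10381082). The FLAG-SMN arrays lay just above the control arrays, by a gap of 0.137, and the difference of means was 0.26. Rarg was at 7.40, 7.43 and 7.45 against 7.32 and 7.38 (probe set 10432972), a difference of 0.079 with a gap of 0.0218. These small differences left the groups apart, and the FLAG-SMN arrays lay close together, with SDs of 0.020 for Rara and 0.028 for Rarg. The closeness held for FLAG-SMN IP replicate 1 too, which lay -0.028 and -0.042 from the mean of replicates 2 and 3.

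Rarb, the receptor gene best known as a direct retinoic acid target, was at 4.37, 4.32 and 4.35 in FLAG-SMN IP and at 4.48 and 4.14 in control IP (probe set 10417713). It exceeded the median of the presumed control probe sets on 1 of 5 arrays. The difference was 0.038 with all arrays and -0.13 without control IP replicate 2, so no direction can be read from it.

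The sequences before the start sites are shown for Rarb and Crabp1. Rarb carries a match to a direct repeat bound by RAR and RXR, and Crabp1 is the gene with the large difference. The sequences come from RefSeq (GRCm38.p6). Windows of 250 bases were given for 8 of the 9 genes, 17 windows in all. The direct repeat bound by RAR and RXR was searched on both strands as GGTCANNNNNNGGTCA, GGTCANNNNNNGTTCA, GTTCANNNNNNGGTCA or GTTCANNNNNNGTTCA. It was found in 69 of 32851 such windows of the mouse genome (0.21%), and among the 17 it was in the window of Rarb alone. It starts 52 and ends 37 bases before the start site, and is in capitals in the last 80 bases of that window (chr14:16575477-16575556, minus strand):
Rarb: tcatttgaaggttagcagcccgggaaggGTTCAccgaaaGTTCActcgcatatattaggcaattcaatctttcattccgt
The window of Crabp1 (chr9:54764498-54764747, plus strand) holds 5 GC boxes, the GGGCGG motif read on both strands and shown in capitals. At least 5 are in 1.93% of all windows and at least 1 in 32.7%. Of the 8 genes with windows, 5 had a GC box in some window, among them Rara (4 in its fullest window), Cyp26b1 (3) and Rarg (3):
Crabp1: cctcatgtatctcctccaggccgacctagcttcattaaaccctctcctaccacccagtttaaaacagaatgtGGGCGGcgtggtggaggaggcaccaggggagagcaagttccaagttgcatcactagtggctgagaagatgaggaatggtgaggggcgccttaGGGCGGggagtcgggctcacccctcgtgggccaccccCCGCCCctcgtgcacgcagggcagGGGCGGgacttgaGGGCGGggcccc
The repeat was not in these 250 bases of Crabp1, and neither was the core GGTCA, which 35.2% of windows hold. These are matches of letters, and the arrays measured precipitated RNA, not the activity of a promoter. Other forms of the repeat were not searched. A window without a match therefore does not show that the gene is no direct target.

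Counted together, the groups did not overlap at 4 of the 9 genes, 2 lower (Crabp1, Stra6) and 2 higher (Rara, Rarg). Over all 19937 genes 25.8% did not overlap, 14.8% lower and 11.0% higher. Since the choice of genes used this contrast, nothing is read from the count. The median difference of the 9 was 0.079 and that of all genes 0.0019. By mean signal, 5 of the 9 exceeded the median tested probe set, and Crabp2, Aldh1a2, Dhrs3 and Rarb did not.

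The wider pathway, 58 further genes listed by role, contained 53 with a probe set of their own. None passed in limma: 0 higher and 0 lower at an adjusted p under 0.05, with adjusted p from 0.0939 to 0.999. At an unadjusted p under 0.05 in limma 1 was higher and 9 were lower, which is 18.9% of the 53. Over all genes 10.5% reached that, 3.25% higher and 7.21% lower. The groups were apart at 12 genes with FLAG-SMN IP lower and at 3 with it higher, together 28.3% of the 53. Over all genes 25.8% were apart, 14.8% lower and 11.0% higher. The total share was thus near that of all genes, with a larger share lower and a smaller share higher. The list was chosen with earlier results of these data known, so nothing is read from these shares. The list's median difference was -0.0040, with 26 positive and 27 negative values, and 29 of the 53 exceeded the median tested probe set in brightness. The count of 9 was 5 without control IP replicate 2.

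Of the retinol carrier, uptake and storage genes, 8 were measured and 1 was lower at an unadjusted p under 0.05. Rbp4 encodes the plasma retinol carrier that docks to STRA6. Its values were 6.89, 6.91 and 6.84 in FLAG-SMN IP and 8.60 and 8.12 in control IP, and the groups were well apart. The difference was -1.48 (SE 0.20; 2.78-fold lower), but it did not pass (limma adjusted p = 0.0939). The intracellular retinol binding gene Rbp7 had overlapping groups and a difference of -0.32 (limma adjusted p = 0.822).

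The synthesis enzymes held 4 of the 9 low values, among 15 measured. Aldh1a3, a retinaldehyde dehydrogenase gene like Aldh1a2, was at 6.35, 6.26 and 6.50 against 7.01 and 7.34, a difference of -0.81 (SE 0.19; limma adjusted p = 0.223). Rdh11, a retinol dehydrogenase gene, was at 7.48, 7.66 and 7.83 against 8.24 and 8.59, a difference of -0.76 (SE 0.21; limma adjusted p = 0.26). In both genes the groups were apart, FLAG-SMN IP lower. Bco1, which cleaves beta-carotene (-0.92), and the reductase gene Dhrs4 (-0.77) were the others, named after their values were seen. The degrading enzymes Cyp26a1 (0.17, limma adjusted p = 0.911) and Cyp26c1 (0.12, limma adjusted p = 0.973) overlapped between the groups, as Cyp26b1 did. Cyp26a1 was below the median of the presumed control probe sets on all arrays, so no level above background was seen for it.

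Receptor partners and cofactors went both ways, and of 9 measured, 1 was higher and 1 lower by unadjusted p under 0.05. Rxrb, a partner of the RARs, was at 8.01, 8.36 and 8.32 in FLAG-SMN IP and at 7.67 and 7.68 in control IP. It was the 1 gene of the 53 that was higher at an unadjusted p under 0.05 in limma. The difference of Rxrb was 0.56 (SE 0.19, limma adjusted p = 0.366). Nrip1, a corepressor gene that retinoic acid induces, was at 6.20, 6.36 and 6.37 against 7.07 and 6.73, a difference of -0.59 (SE 0.19; limma adjusted p = 0.339).

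Among 19 measured genes known as retinoic acid targets, 3 had an unadjusted p under 0.05 in limma on the lower side and 0 on the higher. The homeobox gene Hoxa5 was at 5.86, 5.79 and 5.44 in FLAG-SMN IP and at 6.79 and 6.77 in control IP, a difference of -1.09 (SE 0.20; limma adjusted p = 0.147). Ret, the receptor tyrosine kinase gene of the GDNF family ligands, was at 10.38, 10.60 and 10.76 against 11.13 and 11.48, a difference of -0.73 (SE 0.21; limma adjusted p = 0.286). The third was Hoxa4 (-0.48), named after its value was seen. The median of the 19 was 0.14, above 0, although these 3 were low. By mean signal 11 of the 19 exceeded the median tested probe set, so that median difference also took in dim genes.

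Some markers of neurons and of the noradrenergic neuroblastoma parent were also low in FLAG-SMN IP, the direction of Crabp1, Stra6 and the low pathway genes. Summed log2 values of 3 measured noradrenergic markers of 4 listed (Th, Dbh, Phox2a) were 19.1 to 19.7 in FLAG-SMN IP and 23.0 to 24.3 in control IP. Of these the enzyme genes Th (-1.94) and Dbh (-2.23) had groups apart, while Phox2a (-0.19), a transcription factor gene, overlapped (limma adjusted p = 0.0957, 0.11 and 0.879). Of the 7 general neuronal markers 6 had negative differences, with a median of -0.73. The groups were apart at 3 of them, the synaptic gene Snap25 (-2.14), the dendritic gene Map2 (-1.09) and Elavl4 (-0.73), with limma adjusted p of 0.131, 0.209 and 0.425. They overlapped at Tubb3 (-0.038), Nefl (-0.99), Nefm (-0.36) and Stmn2 (0.12). Beside these marker counts, 25.8% of all genes had groups apart, 14.8% with FLAG-SMN IP lower. The 7 general neuronal markers summed to 39.1 to 47.2 in FLAG-SMN IP and to 46.5 to 48.2 in control IP. These sums overlapped, with FLAG-SMN IP replicate 1 the high array of its group. Stmn2 of that list was below the median of the presumed control probe sets on all arrays. Sums of the 8 motor neuron markers overlapped between the groups (39.2 to 39.7 against 38.9 to 39.8). So did those of the 5 fibroblast markers (24.2 to 24.9 against 24.1 to 24.5). Sums of the 4 measured glial markers of 5 listed (17.9 to 18.2 against 17.3 to 18.9) overlapped too. Those of the 4 macrophage markers did likewise (17.3 to 18.0 against 17.7 to 18.4). Single genes of these lists had groups apart, Cd68 lower (-0.48) and Mnx1 (0.38) and Dcn (0.11) higher. Isl1 of the motor neuron markers had a difference of -0.72 with overlapping groups, while 5 of those 8 markers had positive differences. Below that median on all arrays were also Dcn and Lum of the fibroblast markers, Aqp4 of the glial and Aif1 of the macrophage markers. The part of such differences in the values of Crabp1 and Stra6 was not tested.

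**Figure D2:**
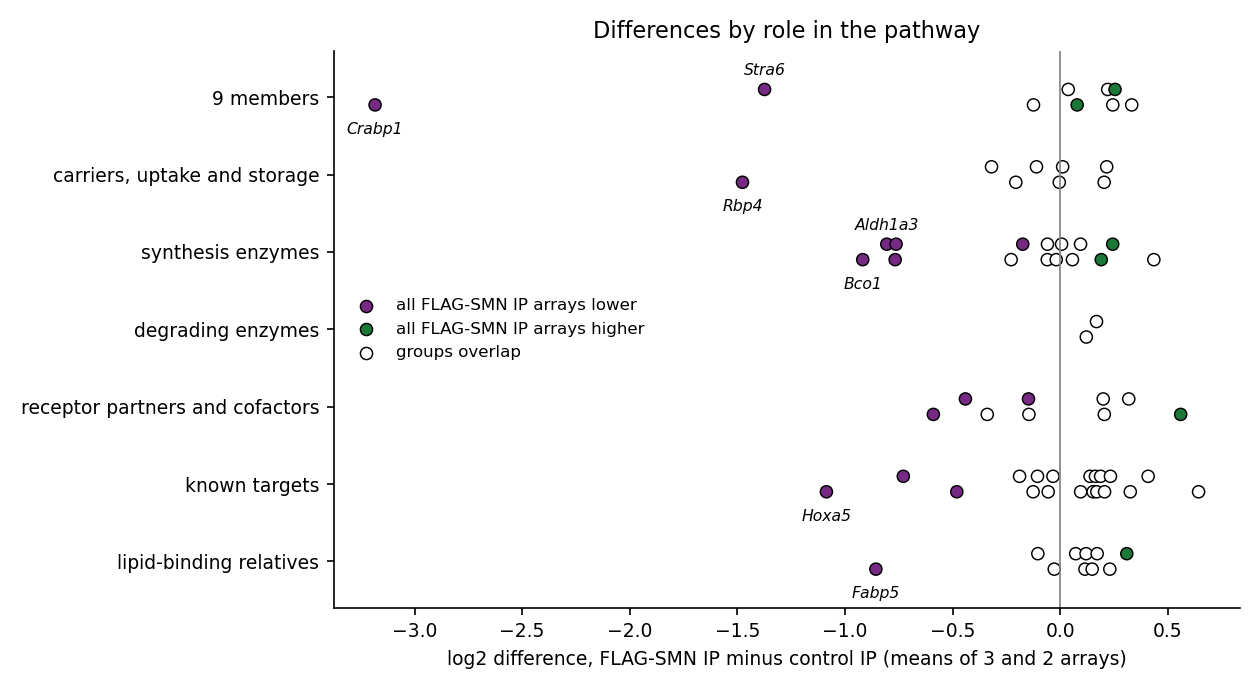
Log2 differences (FLAG-SMN IP minus control IP, means of 3 and 2 arrays) for the 9 genes, the 53 further pathway genes by role and the 10 lipid-binding relatives, 1 point per gene. Filled points are genes whose groups do not overlap; genes with a difference beyond 0.8 in size are named, and Crabp1 at -3.18 lies farthest from 0, followed by Rbp4 at -1.48 and Stra6 at -1.37.

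Crabp1 and Crabp2 belong to the family of small intracellular lipid-binding proteins, and 10 other genes of that family were measured. In limma 0 of the 10 were higher and 0 lower at an adjusted p under 0.05, and likewise at an unadjusted p under 0.05. Their median difference was 0.12, and 2 of them exceeded the median tested probe set in brightness. Fabp5, whose protein carries fatty acids and can carry retinoic acid to another nuclear receptor, was at 7.48, 8.71 and 8.60 in FLAG-SMN IP and at 9.35 and 8.88 in control IP. Its brighter probe set of 2 gave a difference of -0.86 (SE 0.39, limma adjusted p = 0.534). On that probe set the groups were apart by 0.175, with FLAG-SMN IP lower. Its FLAG-SMN IP replicate 1 lay -1.17 from the mean of replicates 2 and 3, a distance that 4.32% of tested probe sets reached or exceeded. The gut gene Fabp2 (0.31, limma adjusted p = 0.763) was below the median of the presumed control probe sets on all arrays. Its groups were apart with FLAG-SMN IP higher. In all, 20.0% of the 10 relatives had groups apart, beside 25.8% of all genes.

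The genes whose pattern was most like that of Crabp1 were not retinoic acid pathway genes. Likeness was the Euclidean distance between log2 values over the 5 arrays, each gene centred on its own mean, among 10782 genes brighter than the median probe set. The nearest were Clip3 (distance 0.908), Wnt1 (0.961), Bicra (0.969), Rln3 (1.07), Car6 (1.10) and Polr2a (1.18). Clip3 encodes a microtubule-associated linker protein, with values of 8.09, 8.82 and 8.02 in FLAG-SMN IP and of 11.17 and 10.56 in control IP. Wnt1 encodes a secreted signal and Polr2a the large subunit of RNA polymerase II. Their differences ran from -2.67 for Car6 to -2.23 for Polr2a, each smaller in size than that of Crabp1. Of the members bright enough to be compared, Stra6 came nearest to Crabp1, at distance 2.16 and rank 122 of 10782. Crabp2, Aldh1a2, Dhrs3 and Rarb were too dim and were not compared. Rarg (3.59), Rara (3.77) and Cyp26b1 (3.86) ranked 6179, 7822 and 8525. The distance describes these 5 arrays, which all the genes share, and carries no test. It was not scaled, so it also follows the size of the difference by which Crabp1 was chosen.

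**Figure D3:**
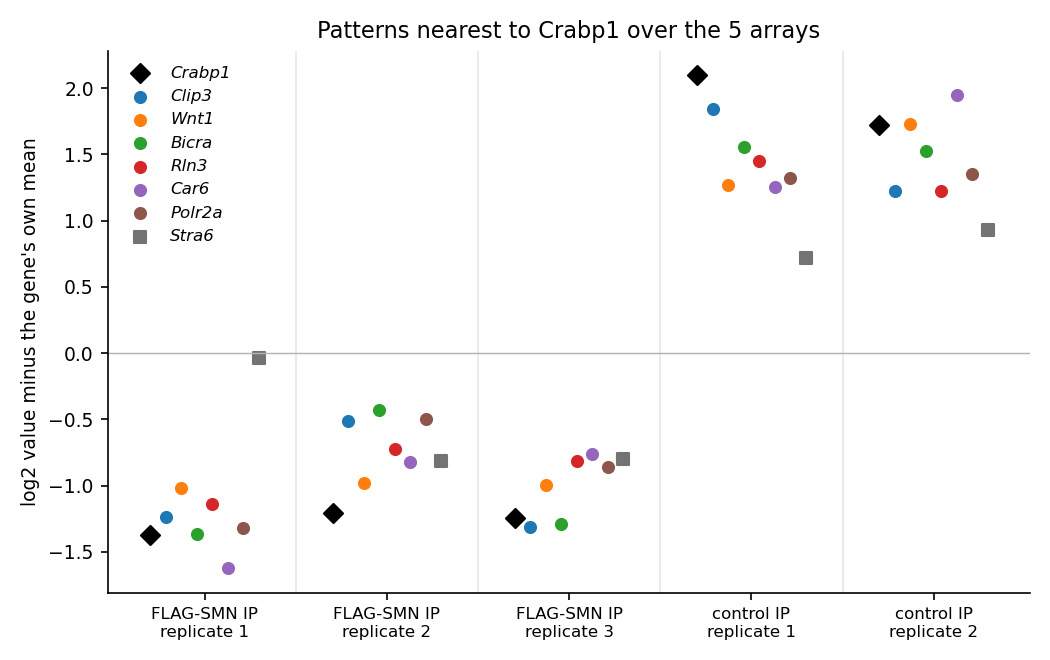
Log2 values minus each gene's own mean on the 5 arrays for Crabp1 (black diamonds), the 6 genes of nearest pattern (coloured circles) and Stra6 (grey squares). All 7 named genes other than Stra6 lie below their mean on each FLAG-SMN IP array and above it on both control IP arrays; Stra6 has a smaller difference, with FLAG-SMN IP replicate 1 near its mean.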

How the data were processed

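The authors deposited 1 table of log2 values for 34760 probe sets on 5 arrays; per the submitters' processing notes they were made with RMA, which corrects background, normalizes by quantiles and summarises probes (version and settings not given in the sources used here). RMA forces arrays toward a common distribution, so a general difference in recovered RNA is not visible. Sample titles gave the groups and replicate numbers. The 6573 probe sets with IDs below the lowest annotated ID were presumed controls, and 28187 were tested. Of these, 21640 carried 1 gene symbol; 21553 matched RefSeq (GRCm38) by gene ID. A gene with several probe sets is given by the brightest.

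Tests used limma 3.58.1 in R 4.3.3 (lmFit, eBayes, 2-sided, no block, Benjamini-Hochberg adjustment over 28187 probe sets, threshold 0.05), tested on simulated data. The members and lists were chosen with earlier results of these data known. Named were all 9 members, per role the 2 further genes of smallest p, the 6 nearest patterns and Smn1. Some listed genes and markers are not reported here. Alternatives were cyclic loess, a replicate block, all probe sets, brighter probe sets, trend and robust moderation, the mean of a gene's probe sets and leaving out each array. Figures used matplotlib 3.10.9.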

Additional observations from a re-analysis of the deposited data

How the results depend on the processing

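The median difference of the 9 genes (0.079) moved by less than the replicate spread in every setting, and with 1 array left out it ran from 0.028 to 0.24. Single genes moved by more than their own replicate spread. These were Crabp1, Aldh1a2, Dhrs3, Rara and Rarb without either control array, and Rarg after cyclic loess scaling. Crabp1, Stra6, Aldh1a2, Cyp26b1, Rara and Rarg kept their sign in every setting tried; Crabp2, Dhrs3 and Rarb each changed sign with 1 array left out. The dim Crabp2, Aldh1a2, Dhrs3 and Rarb have no value among the brighter probe sets. Over all probe sets, the 4 higher and 5 lower calls became 0 and 0 after cyclic loess scaling, with all probe sets of the table and with the replicate number as a block, and 8 lower with trend and robust moderation. Leaving out 1 array gave 0 to 159 higher and 0 to 191 lower, the high counts without FLAG-SMN IP replicate 1. A fit without 1 control array assumes that the remaining one varies like the other group. Of the pathway list, the 1 higher gene became 0 with the replicate block and with trend and robust moderation, and 0 to 1 with 1 array left out; the lower count ran from 5 to 9. Of the lipid-binding relatives, 1 was lower with the replicate block and 0 to 1 with 1 array left out. Under the block Crabp1 had a difference of -3.20. The replicate number is shared by the groups in name alone: the difference of replicate 1 from replicate 2 had r = -0.0078 between the groups, across probe sets.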
